A study of Mus musculus with 16 samples.

Results

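Siglecf, Epx, Prg2, Ccr3, Il5ra, Ear1, Ear2 and Ear6, genes by which mouse eosinophils are commonly recognised, were followed across lymph node macrophages sorted from mice with a carcinoma. The rows of the deposited count table that carried these 8 symbols were taken as members, 1 row each, out of 55423 rows, and all 8 passed the filter on low counts together with 21085 genes in all. The rule names symbols and uses no measured value, although the genes were proposed with earlier results of these data known.

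The study compared sub-capsular sinus macrophages (SSMs), which line the sinus where lymph enters a node, with medullary sinus macrophages (MSMs), in tumor-draining lymph nodes (tdLNs) and non-draining lymph nodes (ndLNs). All mice were C57B/6 males that carried MOC2, a chemically induced squamous cell carcinoma line, placed intradermally in the flank for 2 weeks, so the ndLN controls came from tumor-bearing animals too. Each of 2 pools held nodes of 2 mice, with 2 tdLNs or 6 ndLNs (contralateral inguinal, axillary and brachial), and gave 1 library of each of the 4 kinds, 8 libraries in all, each sequenced on 2 lanes that are summed here. The study's methods count more pools than the labels, which number 2. As the lanes of a library differed by about as much as sampling noise, n is 2 pools here. Live CD45+ CD3- B220- Ly6G- CD11b+ CD169+ cells were sorted as SSMs when CD11c- with low side scatter and as MSMs when CD11c+ with high side scatter, so T cells, B cells and neutrophils were gated against, while no marker in the gate as described was directed at eosinophils, basophils or mast cells. The libraries held 42972328 to 48130352 counts each.

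Eosinophils are granulocytes that mature in the bone marrow under interleukin 5, follow eotaxin chemokines into tissue and release basic proteins, a peroxidase and ribonucleases from their granules. Siglecf encodes a sialic acid-binding inhibitory lectin, Ccr3 the eotaxin receptor and Il5ra the specific chain of the interleukin 5 receptor. Epx encodes eosinophil peroxidase and Prg2 major basic protein, both granule proteins laid down while the cell matures. Ear1, Ear2 and Ear6 encode eosinophil-associated ribonucleases, a family of recent gene copies in rodents. Of these, Epx and Prg2 are the most specific, whereas Ccr3 is also found on basophils and mast cells, Siglecf on some tissue macrophages, and Ear2 in some macrophages and monocytes.

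The 3 receptor genes ran together across the libraries, as the values below show, and their promoters are shown because all 3 hold the short motif bound by GATA factors, of which Gata1 is needed for eosinophils to form. The promoters run from 250 bases before to 50 bases after the start of the gene and come from RefSeq on GRCm38.p6, written 5′ to 3′ on the gene's own strand, with AGATAA or TGATAA in capitals where either was found on one of the strands. The Siglecf promoter lies at chr7:43351091-43351390 on the plus strand, the Ccr3 promoter at chr9:124021721-124022020 on the plus strand, and the Il5ra promoter at chr6:106748988-106749287 on the minus strand.
Siglecf: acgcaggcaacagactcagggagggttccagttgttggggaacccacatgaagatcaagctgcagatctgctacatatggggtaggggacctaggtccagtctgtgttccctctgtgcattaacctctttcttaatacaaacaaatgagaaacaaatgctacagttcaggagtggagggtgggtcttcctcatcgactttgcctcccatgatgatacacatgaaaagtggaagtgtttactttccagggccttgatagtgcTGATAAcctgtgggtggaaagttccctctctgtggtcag
Ccr3: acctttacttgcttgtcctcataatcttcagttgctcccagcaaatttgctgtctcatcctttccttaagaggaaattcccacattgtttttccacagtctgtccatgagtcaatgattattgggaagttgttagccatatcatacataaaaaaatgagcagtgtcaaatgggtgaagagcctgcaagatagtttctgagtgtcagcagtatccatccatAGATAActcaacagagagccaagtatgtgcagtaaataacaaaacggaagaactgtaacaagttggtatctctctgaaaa
Il5ra: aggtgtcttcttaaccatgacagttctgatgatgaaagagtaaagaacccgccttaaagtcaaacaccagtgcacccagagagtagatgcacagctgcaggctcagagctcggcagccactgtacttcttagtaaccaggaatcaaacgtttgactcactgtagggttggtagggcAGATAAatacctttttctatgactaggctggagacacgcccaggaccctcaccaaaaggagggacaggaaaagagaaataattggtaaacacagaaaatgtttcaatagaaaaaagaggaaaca
The match began 11 bases after the start site in Siglecf, 30 bases before it in Ccr3 and 74 bases before it in Il5ra. The table held promoters for 7 of the 8 members, with no entry for Prg2, and the 4 others, those of Epx, Ear1, Ear2 and Ear6, had 0 matches. Of 32851 promoters of the same length, 18.6% held at least 1 match, so the motif is common and a match describes the letters only.

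The ribonuclease genes resembled each other far more than the receptors did, which bears on how their reads could be counted. The first 120 coding bases of Ear1 (chr14:43819290-43819409, minus strand), Ear2 (chr14:44102887-44103006, plus strand) and Ear6 (chr14:51853998-51854117, plus strand), taken from GENCODE M21 transcripts on GRCm38, are set out with the 16 positions that are not the same in all 3 genes in capitals.
Ear1: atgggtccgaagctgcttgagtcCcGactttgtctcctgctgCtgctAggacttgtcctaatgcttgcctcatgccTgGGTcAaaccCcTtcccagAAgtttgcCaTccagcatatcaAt
Ear2: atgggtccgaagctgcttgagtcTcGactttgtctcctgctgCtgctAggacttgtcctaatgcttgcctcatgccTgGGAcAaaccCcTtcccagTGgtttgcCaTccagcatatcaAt
Ear6: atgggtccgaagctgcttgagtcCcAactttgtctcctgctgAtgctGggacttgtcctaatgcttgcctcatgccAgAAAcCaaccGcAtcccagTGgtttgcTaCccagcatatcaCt
Over the whole coding sequence Ear1 and Ear2 were 95.3% identical, Ear1 and Ear6 87.6% and Ear2 and Ear6 87.9%. The promoters of Ear1 and Ear2 were 97.0% identical. Of all 50-base windows of a member's transcripts, 57.4% for Ear1 and 41.5% for Ear2 were also found in the transcripts of another gene, Ear-ps9 taking the largest share for Ear1 and Ear10 for Ear2. Ear6 shared 0.954% of its windows, Il5ra 1.01% and Siglecf 0.206%, while Ccr3, Epx and Prg2 shared 0. Ear10 itself was at 0 counts in all 8 libraries. Counts of Ear1 and Ear2 are therefore uncertain with respect to these near-copies, and 2.33% of the exon bases of Ear1 also overlap Ear-ps9 on the same strand.

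**Figure D1:**
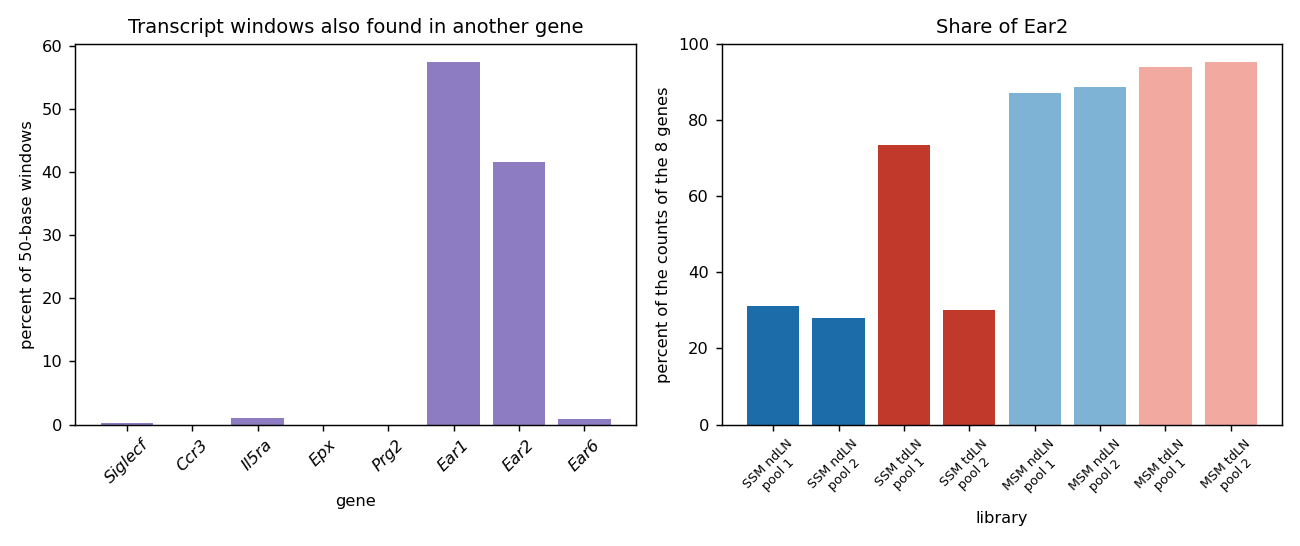
Left: percent of each gene's 50-base transcript windows also found in another gene (y axis) for the 8 genes. Right: percent of the summed counts of the 8 genes that were Ear2 counts (y axis) in each library, 28.1% to 31.2% in 3 SSM libraries, 73.4% in SSMs from tdLN of pool 1 and 87.2% to 95.2% in the MSM libraries.

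Siglecf (chr7:43351341-43359531, plus strand) was read most in SSMs from ndLN. Its level, in counts per 1000000 of the library's total (CPM), was 36.2 and 27.6 in SSMs from ndLN, pools 1 and 2, 5.59 and 17.9 in SSMs from tdLN, 1.73 and 2.69 in MSMs from ndLN, and 2.09 and 1.33 in MSMs from tdLN. All 4 SSM libraries lay above all 4 MSM libraries, and both tdLN libraries lay below both ndLN libraries among SSMs. The groups thus ran from 31.9 ± 6.13 CPM (SD, n = 2) in SSMs from ndLN through 11.8 ± 8.73 in SSMs from tdLN to 2.21 ± 0.675 and 1.71 ± 0.539 in MSMs from ndLN and tdLN, the last 2 of which overlapped.

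Ccr3 (chr9:124021972-124031689, plus strand) followed the same order. It was at 30.5 and 26.5 CPM in SSMs from ndLN, 5.33 and 19.9 in SSMs from tdLN, 0.833 and 0.946 in MSMs from ndLN, and 0.465 and 0.727 in MSMs from tdLN. No library of one group fell among those of another group. The 2 libraries of SSMs from tdLN were 3.74-fold apart, against 1.15-fold for those of SSMs from ndLN, pool 2 being the higher one in tdLN.

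Il5ra (chr6:106710357-106749037, minus strand) was the lowest of the receptors. It was at 8.80 and 7.03 CPM in SSMs from ndLN and 0.650 and 4.90 in SSMs from tdLN. In MSMs it had 27 counts (0.625 CPM) in the ndLN library of pool 1 and 0 counts in the other 3, where a count of 0 allows up to 0.0623 to 0.0697 CPM (3 counts, counting error only). The reading in SSMs was thus found in every library, and in MSMs in 1 of 4.

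Within SSM libraries Siglecf and Ccr3 were read at nearly equal counts, while the share of Il5ra varied more. The ratio of Siglecf to Ccr3 counts was 1.19, 1.04, 1.05 and 0.900 in the 4 SSM libraries, and that of Il5ra to Ccr3 counts 0.288, 0.265, 0.122 and 0.246. In MSMs, Siglecf had 1.83 to 4.50 counts per Ccr3 count, so the lectin outweighed the eotaxin receptor there on few reads. Across the 8 libraries, which share 2 pools and 2 gates, Pearson's r of log2(CPM + 1) was 0.987 for Siglecf and Ccr3, 0.970 for Siglecf and Il5ra, and 0.967 for Ccr3 and Il5ra, given as a description.

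Epx did not follow the receptors, and Prg2 parted from them in 1 SSM library. Epx (chr11:87864000-87875536, minus strand) had 0 counts in both libraries of SSMs from ndLN, where the receptors were highest, and 0 in SSMs from tdLN of pool 1, but 281 counts (6.49 CPM) in SSMs from tdLN of pool 2. In MSMs it had 0 and 1 counts in ndLN and 0 and 25 counts (0.519 CPM) in tdLN. One library thus held 91.5% of all Epx counts, and the only other library above 3 counts came from the same pool and the same kind of node.

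Prg2 (chr2:84980461-84983632, plus strand) was found in every library at a low level and in one at a high level. It was at 5.16 and 2.82 CPM in SSMs from ndLN, 0.563 and 54.3 in SSMs from tdLN, 0.879 and 0.839 in MSMs from ndLN, and 0.837 and 0.374 in MSMs from tdLN. SSMs from tdLN of pool 2 held 2353 of its 2879 counts (81.7%), 10.5-fold more CPM than the next library. There the ratio of Prg2 to Ccr3 counts was 2.73, against 0.106 to 0.169 in the other 3 SSM libraries, where Prg2 ran in the order of Ccr3. Over the 8 libraries its r was 0.659, 0.683 and 0.688 with Siglecf, Ccr3 and Il5ra. Epx, Prg2 and the ribonucleases were all at their SSM maximum in this library, while the receptors were at 0.900 to 1.19 Siglecf counts per Ccr3 count as in the other SSM libraries.

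The ribonucleases split into a pair that was high in the same single libraries and one gene read everywhere. Ear1 (chr14:43818765-43875517, minus strand) had 248 and 7 counts in SSMs from ndLN (5.16 and 0.163 CPM), 2 and 473 counts in SSMs from tdLN (0.0433 and 10.9 CPM), and 0 to 2 counts in the MSM libraries. Ear6 (chr14:51853699-51854643, plus strand) was at 7.30 and 0.140 CPM in SSMs from ndLN, 0.650 and 16.7 in SSMs from tdLN, 0 and 0 in MSMs from ndLN, and 0.511 and 0.374 in MSMs from tdLN. Both were thus high in pool 1 of ndLN and in pool 2 of tdLN, and low in the other 2 SSM libraries, although they share few 50-base windows. In the 2 high libraries Ear1 had 0.707 and 0.652 counts per Ear6 count, and r over the 8 libraries was 0.985.

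Ear2 (chr14:44102654-44103534, plus strand) was the opposite case. It was at 42.2 and 25.1 CPM in SSMs from ndLN, 35.4 and 56.7 in SSMs from tdLN, 27.7 and 35.5 in MSMs from ndLN, and 62.1 and 65.4 in MSMs from tdLN. The highest libraries were MSMs from tdLN, and the 3 other groups overlapped one another. Per kilobase of exon Ear2 was the highest member in every library, with a mean over the 8 libraries of 60.8 CPM per kilobase against 9.81 for Prg2, 4.26 for Siglecf, 3.40 for Ear6, 3.26 for Ccr3, 2.80 for Ear1, 0.769 for Il5ra and 0.321 for Epx. Its r was -0.246, -0.243 and -0.277 with Siglecf, Ccr3 and Il5ra, and 0.298 and 0.405 with Ear1 and Ear6.

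**Figure D2:**
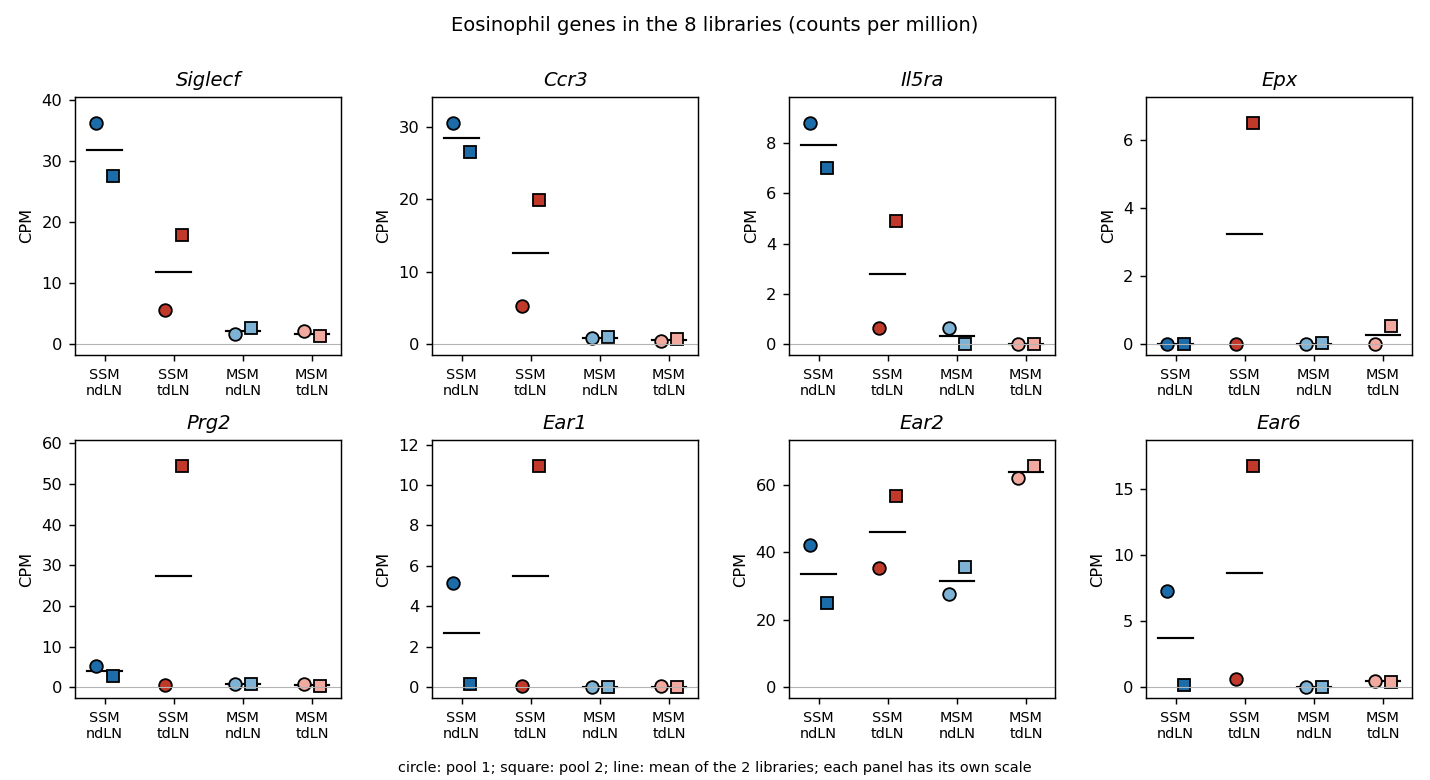
CPM (y axis, a scale of its own in each panel) of the 8 genes in the 4 groups (x axis). Circles are pool 1, squares pool 2 and lines the mean of 2 libraries. Siglecf, Ccr3 and Il5ra are highest in both SSM libraries from ndLN, Epx and Prg2 stand out in 1 library (6.49 and 54.3 CPM), Ear1 and Ear6 in 2, and Ear2 is highest in MSMs from tdLN.

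How the subsets differed without tumor drainage was asked by setting SSMs against MSMs in ndLN. Ccr3 and Siglecf were higher in SSMs and passed the threshold, Il5ra was higher without passing it, and Epx was at or under 3 counts in all 4 libraries. A gene was called at an adjusted p under 0.01 (edgeR quasi-likelihood test, Benjamini-Hochberg over all 21085 genes) and with over 100 normalized counts per lane on average, a level that 4 members (Ear2, Siglecf, Ccr3 and Prg2) reached. With 2 libraries a group, these p-values rest on the spread of libraries left after group and any shift common to a pool are taken out. That spread is estimated over the 4 groups together, with help from the other genes. In bulk RNA, fewer cells of a type and less RNA per cell cannot be told apart.

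In ndLN, Ccr3 was by mean CPM 32.1-fold higher in SSMs (36.7-fold in pool 1 and 28.0-fold in pool 2), with a fitted log2 fold change of 4.79 ± 0.63 (SE) and an adjusted p of 0.00133 in edgeR. Siglecf was 14.4-fold higher (20.9 and 10.3 in the pools), with a log2 fold change of 3.60 ± 0.55 and an adjusted p of 0.00271 in edgeR. These 2 were the members called, of 8, with 0 called lower, where 6.01% of all genes tested were called higher and 6.06% lower. For Il5ra the ratio was 25.3-fold and the log2 fold change 4.45 ± 1.10 (edgeR adjusted p = 0.0271, mean normalized count 56.8).

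Prg2 was 4.64-fold higher by mean CPM (5.87 in pool 1 and 3.36 in pool 2), with a wide fitted error (log2 fold change 2.30 ± 1.85, edgeR adjusted p = 0.415). Its ndLN libraries were only 1.83-fold apart in SSMs and 1.05-fold in MSMs. Those of SSMs from tdLN, which enter the same estimate of spread, were 96.4-fold apart. Ear1 and Ear6 were at 0 in MSMs from ndLN, so that their means in SSMs were at least 39.7-fold and at least 55.6-fold higher than the floor of 3 counts a library, with edgeR adjusted p of 0.300 and 0.251. For both, that difference came mainly from pool 1. Ear2 did not separate, with a mean CPM ratio of 1.06 and, after scaling by edgeR's library factors, a log2 fold change of -0.18 ± 0.31 (adjusted p = 0.724), so its direction turned with the scaling.

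In 6 of 8 members both SSM libraries lay above both MSM libraries, and in 0 below, where 39.9% and 18.4% of all genes did so. The median log2 fold change was 4.03 over the 8 members, or 4.45 over the 7 members that allow a fold when genes at the floor are set to their bound, against 0.09 over all genes tested. Siglecf lost its call without SSMs from ndLN of pool 1 (adjusted p = 0.0158). Both calls were lost when either MSM library from ndLN was left out, with adjusted p of 0.0199 and 0.0296 for Ccr3 and 0.0415 and 0.0391 for Siglecf, the lone library then being taken to vary like the other groups.

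In tdLN the same contrast was carried by Ccr3, while the granule genes added a difference in 1 pool. Ccr3 was 21.2-fold higher by mean CPM in SSMs (11.5 and 27.4 in the pools), with a log2 fold change of 4.26 ± 0.72 and an edgeR adjusted p of 0.00612. It was the 1 member called, of 8, with 0 called lower, where 5.16% of all genes tested were called higher and 3.52% lower. Siglecf was 6.88-fold higher (2.67 and 13.5 in the pools) with a log2 fold change of 2.68 ± 0.62 and an edgeR adjusted p of 0.0231. Il5ra, at 0 in MSMs from tdLN, was at least 42.0-fold higher in SSMs (edgeR adjusted p = 0.0849).

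Prg2 differed in direction between pools, being 0.673 times its MSM level in SSMs of pool 1 and 145-fold higher in pool 2, with a log2 fold change of 5.04 ± 1.61 and an edgeR adjusted p of 0.0739. Epx was 12.5-fold higher in SSMs, a value that rests on pool 2 alone (log2 fold change 3.53 ± 0.76, edgeR adjusted p = 0.0454, mean normalized count 19.8). Ear6 was 19.6-fold higher by mean CPM, 1.27-fold in pool 1 and 44.8-fold in pool 2 (edgeR adjusted p = 0.245), and Ear1 at least 83.0-fold higher by its pool 2 library (adjusted p = 0.240). Both Ear2 libraries of SSMs lay below both of MSMs, with a log2 fold change of -0.53 ± 0.30 (edgeR adjusted p = 0.298).

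Both SSM libraries lay above both MSM libraries from tdLN for 4 of 8 members (Siglecf, Ccr3, Il5ra and Ear6) and below them for Ear2, where 31.4% of all genes lay above and 25.2% below. The median log2 fold change of the 8 members was 4.18, with or without bounds, against 0.02 over all genes. Without SSMs from tdLN of pool 2, Prg2, Epx and Ear6 had log2 fold changes of -0.45, -1.62 and -0.48, and Ccr3 lost its call (edgeR adjusted p = 0.0244). Without SSMs from tdLN of pool 1, 3 members were called, Ccr3, Siglecf with 3.46 (edgeR adjusted p = 0.00753) and Prg2 with 6.86 (adjusted p = 0.00118). Ccr3 also lost its call without either MSM library from ndLN (adjusted p = 0.0164 and 0.0166), or without either one from tdLN (0.0503 and 0.0938).

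**Figure D3:**
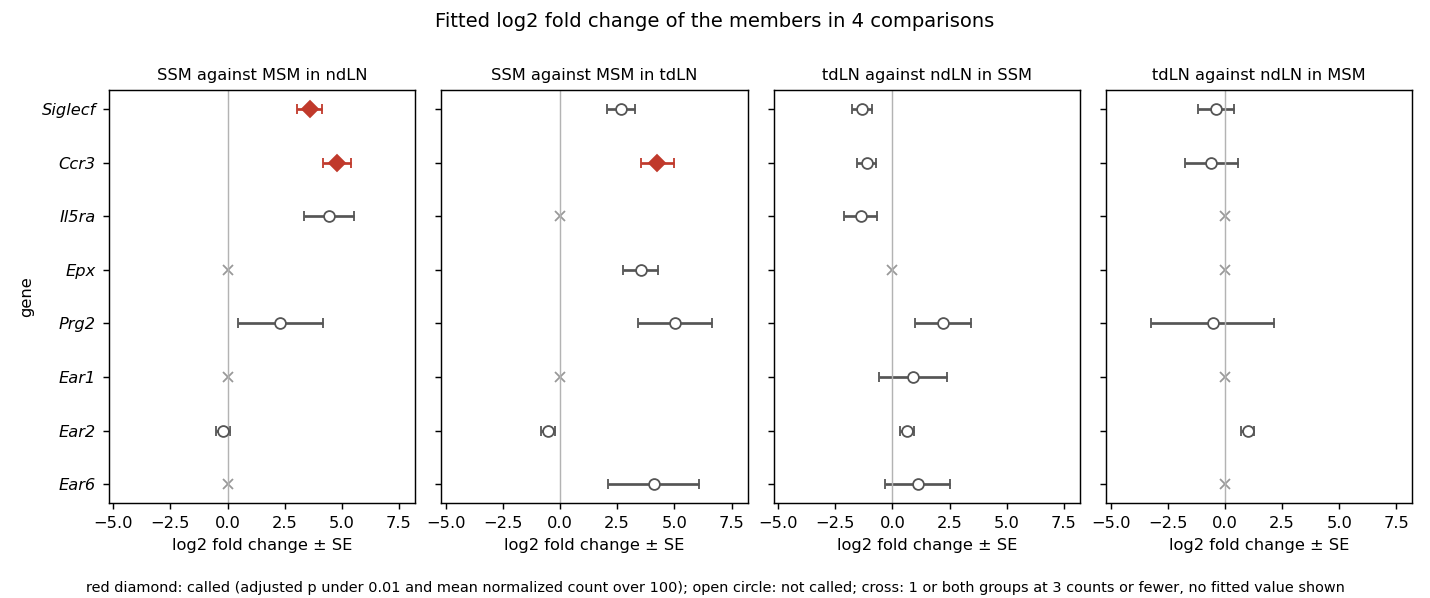
Fitted log2 fold change ± SE (x axis) of the 8 genes (y axis) in 4 comparisons. Red diamonds are called, open circles are not, and crosses mark genes with a group at 3 counts or fewer in both libraries, for which no fitted value is drawn. Ccr3 is called in both comparisons of SSMs with MSMs and Siglecf in that in ndLN, and 0 members are called between tdLN and ndLN.

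How SSMs differed with tumor drainage was asked by setting tdLN against ndLN. In either subset, this compares 2 tdLNs with 6 ndLNs that include axillary and brachial nodes. Drainage, node site and number of nodes pooled therefore cannot be told apart. The receptors were lower in tdLN in both pools, without passing the threshold. Siglecf was at 0.369 times its ndLN level (0.154 in pool 1 and 0.651 in pool 2), with a log2 fold change of -1.32 ± 0.44 and an edgeR adjusted p of 0.117. Ccr3 was at 0.443 times (0.175 and 0.751) with -1.12 ± 0.43 and an adjusted p of 0.165. Il5ra was at 0.350 times (0.0739 and 0.697) with -1.39 ± 0.71 and an adjusted p of 0.301.

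The granule genes had no common direction between the pools. Prg2 was at 0.109 times its ndLN level in pool 1 and 19.3-fold higher in pool 2, with a log2 fold change of 2.20 ± 1.22 (edgeR adjusted p = 0.331). Ear6 was at 0.0890 times in pool 1 and 120-fold higher in pool 2 (1.10 ± 1.41, adjusted p = 0.711), and Ear1, with 248 and 2 counts in pool 1, was 67.0-fold higher in pool 2 (0.90 ± 1.49, adjusted p = 0.790). Epx, at 0 in both ndLN libraries, was at least 49.1-fold higher by the group means, on the counts of 1 of 2 tdLN libraries (edgeR adjusted p = 0.0334, and 0.157 without the pool term). Without SSMs from tdLN of pool 2, Prg2, Ear1 and Ear6 had log2 fold changes of -2.91, -6.58 and -3.12, and without SSMs from ndLN of pool 2, -0.89, -5.55 and -2.48. Ear2 was at 0.838 times in pool 1 and 2.26-fold higher in pool 2 (0.64 ± 0.31, adjusted p = 0.266).

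Of the 8 members 0 were called in edgeR and 0 in DESeq2, 3 had an unadjusted p under 0.05 in edgeR (Siglecf, Ccr3 and Epx), and 1.98% of all genes tested were called higher and 1.05% lower. Both tdLN libraries lay below both ndLN libraries for the 3 receptors and above for 0 members, where 35.1% and 17.9% of all genes did so. The median log2 fold change was 0.77 over the 8 members and -0.04 over all genes.

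Within MSMs, Ear2 had the lowest p of the members between tdLN and ndLN. It was 2.02-fold higher in tdLN by mean CPM (2.24 and 1.84 in the pools), with a log2 fold change of 0.99 ± 0.30, an unadjusted p of 0.0123 and an edgeR adjusted p of 0.261. Siglecf was at 0.774 times its ndLN level (1.21-fold in pool 1 and 0.495 in pool 2), and its log2 fold change of -0.40 ± 0.79 was within its error. Ccr3 was at 0.670 times (-0.59 ± 1.16) and Prg2 at 0.705 times (-0.53 ± 2.68), both on 18 to 44 counts a library. Ear6 had 0 counts in both ndLN libraries and 22 and 18 in tdLN, at least 6.61-fold higher by mean CPM, and Epx had 0 and 1 in ndLN and 0 and 25 in tdLN, at least 3.88-fold higher.

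Here too 0 of 8 members were called in edgeR and 0 in DESeq2, 1 (Ear2) had an unadjusted p under 0.05 in edgeR, and 0.00474% of all genes tested were called higher and 0.019% lower. Both tdLN libraries lay above both ndLN libraries for Ear2 and Ear6 and below for Ccr3 and Prg2, where 22.4% and 16.5% of all genes did so. The median log2 fold change of the members was 0.29, or -0.40 over the 7 with a fold when genes at the floor were set to their bound, against 0.01 over all genes. For the difference between the 2 tdLN effects, tested as an interaction in edgeR, 0 members were called by edgeR or DESeq2 and 0 had an unadjusted p under 0.05, with adjusted p from 0.817 to 1. Of all genes 0.0332% were called higher and 0.00474% lower. The interaction was -0.92 ± 0.91 for Siglecf, -0.54 ± 1.26 for Ccr3, 2.74 ± 2.96 for Prg2 and -0.35 ± 0.43 for Ear2. These comparisons share libraries, each group entering 2 of them.

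Among markers of other cells that the gate could hold, the sum of those of basophils and mast cells ran in the order of the receptors within SSMs. Not every gene on that list did so, and the lists were chosen with earlier results of these data known. The summed level of 16 basophil and mast cell genes was 3794 and 2592 CPM in SSMs from ndLN, 440 and 925 in SSMs from tdLN, 607 and 669 in MSMs from ndLN, and 394 and 295 in MSMs from tdLN. Across subsets the order differed, as the sums in MSMs from ndLN exceeded that of SSMs from tdLN of pool 1. Kit, a receptor also found on other cells, made up most of the sums in MSMs, at 547 and 593 CPM in ndLN and 359 and 254 in tdLN, against 383, 554, 70.7 and 62.0 in the SSM libraries. In SSMs 15 or 16 of the 16 genes had more than 3 counts, in MSMs 7 to 10, and Ms4a2, the beta chain of the high-affinity IgE receptor, and Mrgprb2, a mast cell receptor, were at 0 in all 4 MSM libraries. Fcer1a, its alpha chain, was at 37.2 and 17.1 CPM in SSMs from ndLN, 5.92 and 19.0 in SSMs from tdLN, and 0 to 0.0463 in MSMs.

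Of these 16 genes, SSMs from ndLN had 10 called above MSMs and 0 below, SSMs from tdLN 8 above and 1 (Kit) below, and in SSMs 1 was called higher (Mcpt8) and 2 lower (Cpa3 and Kit) in tdLN than in ndLN. The shares of all genes tested called higher and lower were 6.01% and 6.06%, 5.16% and 3.52%, and 1.98% and 1.05% in the same order. Cpa3, a mast cell carboxypeptidase, was at 636, 358, 34.9 and 114 CPM in the SSM libraries in the same order, and Mcpt8, a basophil protease, at 1.81, 4.51, 19.8 and 24.0. Mcpt8 was thus higher in both tdLN libraries, where Cpa3 was lower, and it did not follow the receptors. Il4, at 30.0, 11.5, 6.96 and 42.8 CPM in the same libraries, did not keep their order either. Nor did Prss34, Kit and Fcer1a, while Cpa3, Cma1, Mcpt4 and Tpsb2 did. The part of these cells in the receptor levels was not tested.

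Epx did not follow the summed level of the basophil and mast cell list, and Prg2 did so in 3 of 4 SSM libraries. In SSMs from ndLN, where the basophil and mast cell list was highest, Epx was at 0, and in SSMs from tdLN of pool 2, where Prg2 and Epx peaked, that list was at 24.4% of its highest library. The neutrophil list of 10 genes, whose cells Ly6G was to remove, summed to 44.9 and 313 CPM in SSMs from ndLN, 566 and 207 in SSMs from tdLN and 2.32 to 9.27 in MSMs, and peaked in the SSM library with the lowest Prg2. It had 2 genes called above MSMs in ndLN, 4 in tdLN and 0 below in both. The ILC2 and Th2 list of 11 genes summed to 1217 and 1580 CPM in SSMs from ndLN, 375 and 446 in SSMs from tdLN and 31.4 to 68.8 in MSMs, with 8 and 5 genes called higher in SSMs from ndLN and tdLN, and 3 called lower in tdLN than in ndLN within SSMs. Of all genes tested, 6.01% were called higher and 6.06% lower in SSMs against MSMs in ndLN, and 5.16% and 3.52% in tdLN. Within SSMs, 1.98% were called higher and 1.05% lower in tdLN than in ndLN. The part of any of these cells was not tested.

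**Figure D4:**
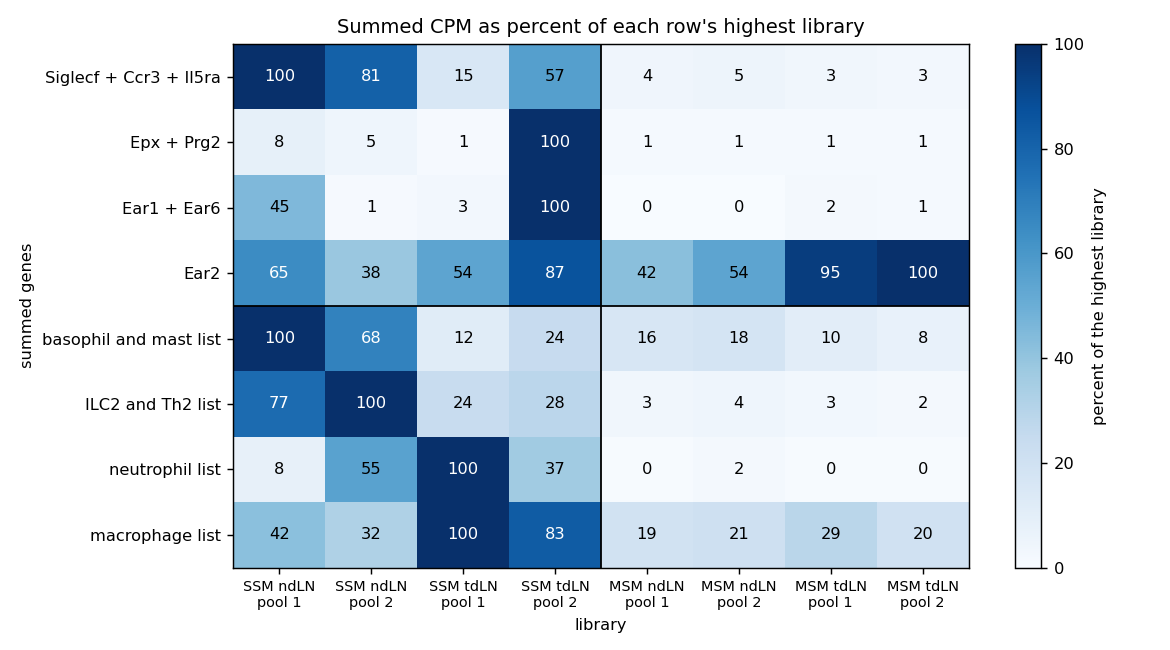
Summed CPM of 4 sets of the eosinophil genes and 4 marker lists (rows) in the 8 libraries (columns), as percent of each row's highest library. The receptors and the basophil and mast cell list are highest in SSMs from ndLN of pool 1, Epx with Prg2 and Ear1 with Ear6 in SSMs from tdLN of pool 2, and Ear2 in MSMs from tdLN.

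The labelled cell types were checked by the remaining lists. The 12 macrophage genes summed to 1193 to 1549 CPM in SSMs from ndLN, 3053 to 3686 in SSMs from tdLN and 708 to 1051 in MSMs. Siglec1, which encodes the CD169 used for sorting, ranged over SSM libraries from 9.75 to 67.7 CPM and over MSM libraries from 0.717 to 5.72, and Vsig4 was at 0 in all libraries. Given for SSMs and then for MSMs, the 10 dendritic cell genes summed to 1040 to 2640 and 4433 to 4794 CPM, the 8 monocyte genes at 3581 to 6594 and 2199 to 2447, the 8 T cell genes at 725 to 2034 and 462 to 748, and the 8 B and plasma cell genes at 256 to 632 and 25.4 to 125.

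The wider eosinophil pathway was read from a list of 45 genes, of which 41 could be tested. In SSMs against MSMs from ndLN 14 were called higher and 5 lower, in tdLN 9 and 3, in tdLN against ndLN within SSMs 7 and 1, within MSMs 0 and 0, and 0 in the interaction. Of all genes tested, the shares called higher and lower were 6.01% and 6.06%, 5.16% and 3.52%, and 1.98% and 1.05% in the first 3 of these. The median log2 fold changes over the tested genes were 1.53, 0.87, 0.05, 0.30 and -0.32 in that order. By role, 4 of 10 ligands, 4 of 13 receptors and surface proteins, 2 of 11 transcription factors and 4 of 11 granule proteins and enzymes were called higher in SSMs from ndLN, with 2 receptors and 3 transcription factors lower. Ear10 and Ear14, further ribonucleases, were at 0 in all libraries.

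Among the ligands, Csf2, which encodes the survival factor GM-CSF, was at 40.7 and 59.1 CPM in SSMs from ndLN, 6.70 and 11.2 in SSMs from tdLN and 0 to 0.278 in MSMs. In ndLN, SSMs exceeded MSMs 203-fold (log2 fold change 7.38 ± 0.37, edgeR adjusted p = 2.63e-05), at least 136-fold higher in tdLN (adjusted p = 2.22e-04), and within SSMs lower in tdLN by -2.28 ± 0.21 (adjusted p = 0.00197). Ccl24, the eotaxin that binds the product of Ccr3, went the other way. It was at 0.520 and 0.838 CPM in SSMs from ndLN and 9.47 and 60.7 in SSMs from tdLN, highest in the library in which Prg2 and Epx peaked (log2 fold change 5.68 ± 0.59, edgeR adjusted p = 0.00225). In MSMs it was at 0.948 and 0.903 CPM in ndLN and at most 9.29 in tdLN, above both ndLN libraries in either pool.

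Il5, the ligand of Il5ra, and Csf2rb, the chain that signals with it, are given for that tie and were chosen after their values were seen. Il5 was at 8.34 and 34.5 CPM in SSMs from ndLN, 1.58 and 0.877 in SSMs from tdLN and 0 to 0.0232 in MSMs, and was called higher in SSMs from ndLN, by at least 320-fold (edgeR adjusted p = 0.00336). Its 2 SSM libraries from ndLN were thus in the opposite order to those of Il5ra. Csf2rb was read in all libraries at 210 to 639 CPM, called lower in SSMs of ndLN than in MSMs there (log2 fold change -1.60 ± 0.15, edgeR adjusted p = 2.92e-04) and higher in tdLN than in ndLN within SSMs (1.09 ± 0.15, adjusted p = 0.00573), the reverse of the order of Il5ra.

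Among surface genes, Adgre4, a myeloid cell receptor of the adhesion family, was between 272 and 450 CPM in the SSM libraries and between 36.5 and 64.6 in those of MSMs, with log2 fold changes of 2.36 ± 0.17 in ndLN and 2.78 ± 0.17 in tdLN (edgeR adjusted p = 8.37e-05 and 8.34e-05). Cd300lf, an inhibitory receptor of myeloid cells, was 6.39-fold higher in SSMs than in MSMs in tdLN (2.71 ± 0.30, adjusted p = 9.13e-04). It was also called higher in SSMs in ndLN (4.58-fold, edgeR adjusted p = 0.00402). Within SSMs it was not called between tdLN and ndLN (1.42 ± 0.28, edgeR adjusted p = 0.0219). Pirb, an inhibitory immunoglobulin-like receptor, rose in SSMs from 143 to 175 CPM in ndLN to 490 to 561 in tdLN (1.94 ± 0.13, adjusted p = 0.00110). All 3 were read at 54.1 to 561 CPM in every SSM library, unlike the member receptors.

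Among transcription factors, Spi1, which encodes the myeloid factor PU.1, was in ndLN lower in SSMs than in MSMs (log2 fold change -2.25 ± 0.14, edgeR adjusted p = 4.59e-05) and higher in tdLN than in ndLN within SSMs (1.32 ± 0.13, adjusted p = 0.00231). Trib1, a pseudokinase needed for eosinophil identity, was called lower in SSMs than in MSMs in ndLN (-2.23 ± 0.16, edgeR adjusted p = 9.32e-05). In tdLN Trib1 was called lower too (-1.13 ± 0.16, edgeR adjusted p = 0.00247). Irf8 was called lower in SSMs than in MSMs in tdLN (-1.64 ± 0.16, edgeR adjusted p = 4.98e-04). It was also called lower in ndLN (-1.32 ± 0.16, edgeR adjusted p = 8.50e-04). Within SSMs, Trib1 was not called between tdLN and ndLN (0.77 ± 0.16, edgeR adjusted p = 0.0244). Nor was Irf8 (-0.07 ± 0.15, edgeR adjusted p = 0.848). Gata1, named for the motif shown above after its values were seen, was at 2.87 and 1.95 CPM in SSMs from ndLN, 0 and 1.32 in SSMs from tdLN and 0 to 0.0697 in MSMs. Its highest and lowest SSM libraries were those of the receptors, and it was not called (mean normalized count 15.9).

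The genes whose levels were most like those of a member were looked for among 9684 others over the 8 libraries, by r of log2(CPM + 1). For Siglecf these were P2rx1 (0.997), Bcl2l13 (0.990), Tpsab1 (0.989), Clcf1 (0.987) and F5 (0.987), and for Ccr3 Cyp11a1 (0.998), Bcl2l13 (0.993), Klra3 (0.992), Tph1 (0.992) and Tpsb2 (0.991). Tpsab1 and Tpsb2 encode mast cell tryptases and are on the basophil and mast cell list, and Bcl2l13 stood near both receptors. For Prg2, which rests on 1 library, they were Mtif2 (0.922), Ccs (0.898), Cdpf1 (0.875), Trak1 (0.871) and Zfp961 (0.857), and for Ear2 Apool (0.963), Cox5b (0.962), Fibp (0.961), Ndufs5 (0.961) and Ndufs4 (0.957). The 8 points share pools, gates and sequencing run, and with so many genes high values are found for any profile.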

How the data were processed

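RNA from 8 pools of sorted cells (4 groups, 2 pools of mice) was made into SMART-Seq v4 libraries. Per the labels, the authors used bcl2fastq 2.20.0.422, Trimmomatic 0.36 and STAR 2.5.3a on GRCm38, and deposited raw counts per gene without normalization, 1 column for each lane. The strand setting of the counting is not given in the sources used here. Lanes were summed per library, as their counts agreed within sampling noise (chi-square per degree of freedom 0.955 to 1.02, against 29.3 to 53.1 between pools). The 2 rows of added sequences held 6 counts and were left out. Genes with at least 10 counts and detected in at least 2 of 16 samples were fitted with edgeR 4.0.16 (TMM, quasi-likelihood F test, two-sided, group and pool as terms, R 4.3.3). The fit was also run on simulated counts. These had no pool shift and not the wide spread of some members, so that run says nothing on the tests of such members. CPM are relative to the library's total. DESeq2 1.42.0, other filters, scalings and left-out libraries were tried. The pool term is from the study's methods, which state that each pool gave all 4 kinds of sample. Deviations of same-numbered libraries correlated at -0.0458 to 0.148 in the groups compared.

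Members and lists (eosinophil, eosinophil pathway, basophil and mast, ILC2 and Th2, neutrophil, macrophage, dendritic cell, monocyte, B and plasma cell, T cell) were chosen with earlier results of these data known. Named are all members, the 4 pathway genes with the smallest adjusted p among those called in a comparison, and for each member over the mean cut-off the 5 genes with the highest r. Symbols and positions are from GENCODE M21. Promoters are from RefSeq. Intervals and floors cover counting error only.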

Additional observations from a re-analysis of the deposited data

How the results depend on the processing

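With 2 libraries a group, the calls of members rest on few residual degrees of freedom. Of 521 alternative values of the member tests, 488 kept their direction and their side of the threshold, 19 changed direction, 10 lost the threshold and 4 gained it. Of 64 CPM values, 57 moved by less than 1 SD and 7 by more with TMM-scaled totals. The number of members called in SSMs against MSMs was 2 in ndLN and 1 in tdLN, where 6.01% and 5.16% of all genes tested were called higher. It was 0 and 0 with Holm adjustment, and in tdLN 2 with DESeq2 and 2 at an adjusted p under 0.05. Leaving out 1 library at a time gave 0 to 2 in ndLN and 0 to 3 in tdLN. With no replicate block, thus without pairing by pool, the counts were 2 and 1 as before, and the block changed no call of a member. No count of members changed for tdLN against ndLN in either subset or for the interaction in any alternative, each being 0, and with only the groups compared no interaction could be fitted.

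Fitted log2 fold changes changed direction only when 1 library was left out, among the alternatives run, and the cause was not tested; the mean CPM ratio of Ear2 in ndLN, without library factors, also lay on the other side of 1. Ranges are over the 8 fits that each leave out 1 library. In SSMs, tdLN against ndLN, they ran from -2.91 to 4.37 for Prg2, -6.58 to 6.22 for Ear1 and -3.12 to 6.97 for Ear6. In tdLN, SSMs against MSMs, they ran from -0.45 to 6.86 for Prg2, -0.48 to 7.83 for Ear6 and -1.62 to 3.56 for Epx. In ndLN, Ear2 ran from -0.79 to 0.31. In MSMs, tdLN against ndLN, Prg2 ran from -1.99 to 1.42 and Siglecf from -0.95 to 0.13. The interaction ran from -0.87 to 0.23 for Ear2, -1.65 to 0.29 for Ccr3 and -2.34 to 4.96 for Prg2. Over 17 alternative fits, which leave out the changes of adjustment and cut-off, Ccr3 passed the threshold in 15 in ndLN and 12 in tdLN, and Siglecf in 14 and 2. A count of 0 could not be told from a level up to 0.0623 to 0.0698 CPM at this depth.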
